A study of Homo sapiens with 17 samples.

Results

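Contacts in *cis* with more than 5 Mb between the midpoints of their 2 *Hin*dIII fragments were taken from the promoter-capture Hi-C (PCHi-C) list of primed human pluripotent stem cells (PSCs). They numbered 431 of the 88712 *cis* contacts and of the 88985 contacts of any kind in that list, and pairs listed from both baited ends were counted as 1 contact. In PCHi-C, Hi-C ligation products that carry a promoter fragment are enriched with baits, so that at least 1 end of every contact is a baited fragment, and CHiCAGO gives each fragment pair a score against the reads that its distance and its baits predict. All samples came from the H9 NK2 human embryonic stem cell line, kept either as naive PSCs in t2iL+PKCi medium on Matrigel or as primed PSCs in TeSR-E8 medium on Vitronectin, so that the states differ in medium and surface and each is represented by 1 line. The lists combine 2 PCHi-C replicates per state, the Hi-C is 1 library per state, and CUT&RUN for H3K4me1 gave 3 primed and 2 naive libraries.

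Many genes for developmental transcription factors lie in CpG-rich domains that are held silent in pluripotent cells by Polycomb complexes, which mark histone H3 with K27 methylation and can bring distant silent domains together in the nucleus. H3K4me1 is a histone mark of enhancers and of the flanks of promoters, including poised ones. Neither Polycomb occupancy nor expression was analysed here. The end fragments are described by the genes whose promoters they carry, a promoter being a GENCODE transcript start of a protein-coding gene with the 1000 bp before it.

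The end fragments were CpG-rich as a set, and promoter DNA of leading pairs is shown beside that. Each line holds the 250 bases before a RefSeq transcript start (build GRCh38.p14), written 5′ to 3′ on the strand of the gene with every CpG in capitals. For a gene with several starts, that on the fragment with the most contacts was taken, then that with the most CpGs. *PAX6* has 9 starts, and *NKX2-1* and *NR2E1* have 2 each. The first is *NKX2-1* at chr14:36520233-36520482 (minus strand). *PAX6* at chr11:31817962-31818211 and *DBX1* at chr11:20160476-20160725 (both minus strand) form 1 pair. *NR2E1* at chr6:108165772-108166021 and *PRDM13* at chr6:99606583-99606832 (both plus strand) form another. *NKX2-3* at chr10:99532692-99532941 (plus strand) and *VAX1* at chr10:117138271-117138520 (minus strand) form the last. The *VAX1* promoter fragment itself was an end of only 1 contact.
NKX2-1: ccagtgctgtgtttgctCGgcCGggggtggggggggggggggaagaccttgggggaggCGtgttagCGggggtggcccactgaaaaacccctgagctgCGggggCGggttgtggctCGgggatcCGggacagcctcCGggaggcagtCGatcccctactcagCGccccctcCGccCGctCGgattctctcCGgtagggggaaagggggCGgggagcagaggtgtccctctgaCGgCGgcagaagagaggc
PAX6: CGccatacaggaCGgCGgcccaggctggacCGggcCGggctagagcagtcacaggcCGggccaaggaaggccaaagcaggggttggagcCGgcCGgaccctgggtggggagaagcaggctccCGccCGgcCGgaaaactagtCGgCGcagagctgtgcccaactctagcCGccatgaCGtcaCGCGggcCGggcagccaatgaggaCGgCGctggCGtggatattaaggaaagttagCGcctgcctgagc
DBX1: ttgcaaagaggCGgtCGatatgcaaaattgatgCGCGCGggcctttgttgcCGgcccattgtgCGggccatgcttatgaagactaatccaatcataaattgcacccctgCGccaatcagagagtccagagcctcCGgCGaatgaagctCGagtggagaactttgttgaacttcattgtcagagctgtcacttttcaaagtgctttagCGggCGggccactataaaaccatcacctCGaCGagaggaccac
NR2E1: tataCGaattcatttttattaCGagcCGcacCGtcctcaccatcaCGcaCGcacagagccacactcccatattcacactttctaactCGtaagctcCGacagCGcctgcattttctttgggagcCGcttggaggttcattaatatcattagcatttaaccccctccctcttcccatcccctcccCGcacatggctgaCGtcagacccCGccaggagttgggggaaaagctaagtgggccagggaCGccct
PRDM13: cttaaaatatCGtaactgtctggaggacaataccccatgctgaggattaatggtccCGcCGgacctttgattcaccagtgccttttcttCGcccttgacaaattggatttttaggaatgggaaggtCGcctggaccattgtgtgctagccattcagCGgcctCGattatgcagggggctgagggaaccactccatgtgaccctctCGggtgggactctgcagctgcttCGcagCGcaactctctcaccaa
NKX2-3: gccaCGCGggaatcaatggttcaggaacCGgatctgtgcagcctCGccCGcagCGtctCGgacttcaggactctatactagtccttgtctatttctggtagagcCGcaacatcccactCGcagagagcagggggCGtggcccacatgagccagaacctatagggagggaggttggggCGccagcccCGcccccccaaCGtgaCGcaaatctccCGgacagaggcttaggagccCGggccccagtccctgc
VAX1: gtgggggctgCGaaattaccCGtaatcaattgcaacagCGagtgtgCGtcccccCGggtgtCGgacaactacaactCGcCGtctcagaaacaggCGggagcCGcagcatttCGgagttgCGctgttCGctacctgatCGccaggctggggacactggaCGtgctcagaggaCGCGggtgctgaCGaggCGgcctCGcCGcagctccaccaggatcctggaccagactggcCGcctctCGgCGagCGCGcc
These 7 windows held 18, 22, 15, 14, 10, 16 and 26 CpGs in the order shown, and *PRDM13*, with 10, was below the median of 11 over all windows. At least as many were found in 36.8%, 28%, 42.9%, 44.8%, 52.2%, 41.0% and 19.6% of the 35116 RefSeq promoter windows of that length. The promoter windows alone did not set the anchors apart: 117 windows of 74 developmental anchor genes had a median of 18 CpGs, and 239 windows of 188 developmental genes that anchor no such contact had 18 as well, against 11 over all windows. The whole fragments differed. End fragments that carry a developmental promoter had a median of 44.5 CpGs per kb (n = 131), against 25.9 in developmental promoter fragments without a contact over 5 Mb (n = 685). The 685 were taken whether or not they were baited or contacted, and can include other promoter fragments of anchor genes. How far this sets the difference was not tested. Over all 445 end fragments the median was 25 CpGs per kb, 2.72 times the 9.17 of fragments in primed contacts of up to 1 Mb, and among baited fragments alone the values were 34.7 and 19.0. The 131 fragments also had a median GC content of 54.4%, against 49.9% in the 685 others and 39.0% over all *Hin*dIII fragments.

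The distances ran from 5.07 to 218 Mb with a median of 13.6 Mb, and 313 contacts exceeded 10 Mb. Reads were few. The combined and scaled read number ranged from 2 to 27 with a median of 4 and summed to 1952, and 94 contacts had 3 reads and 176 had 4, while contacts of 1 to 5 Mb had a median of 11. The CHiCAGO score had a median of 8.03, with quartiles of 6.19 and 11.7. Of the 431 contacts, 103 joined 2 baited fragments, and 61 of these were listed from both sides. Both ends lay on the same chromosome arm in 377 contacts and on different arms in 54. Chromosome 11 held 55 contacts, chromosome 5 held 51, chromosome 6 held 50 and chromosome 2 held 43, and none lay on chromosomes 20, 21, 22 or Y. At the threshold of the rule, the nearest contact inside was *PITX1* to *PURA* at 5.07 Mb with 7 reads and a score of 12.98, and the nearest outside was a fragment 16.0 kb from *MAT2B* to *RARS1* at 5.00 Mb with 5 reads and a score of 5.47.

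The highest score, 40.2, belonged to *SLC20A1* (a phosphate transporter) and a fragment 168.5 kb from *FANCL*, 54.2 Mb apart, with 8 reads. The next, 37.7, joined *ZNF595* (a zinc finger gene near the end of chromosome 4) to a fragment 255.3 kb from *CWH43*, and a second fragment there, 282.1 kb from *CWH43*, gave the largest read number, 27, with a score of 26.9. The following scores were 29.6 and 28.9 for *NR2E1* with fragments 4.9 and 7.8 kb from *PRDM13*, on 12 and 9 reads.

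**Figure D1:**
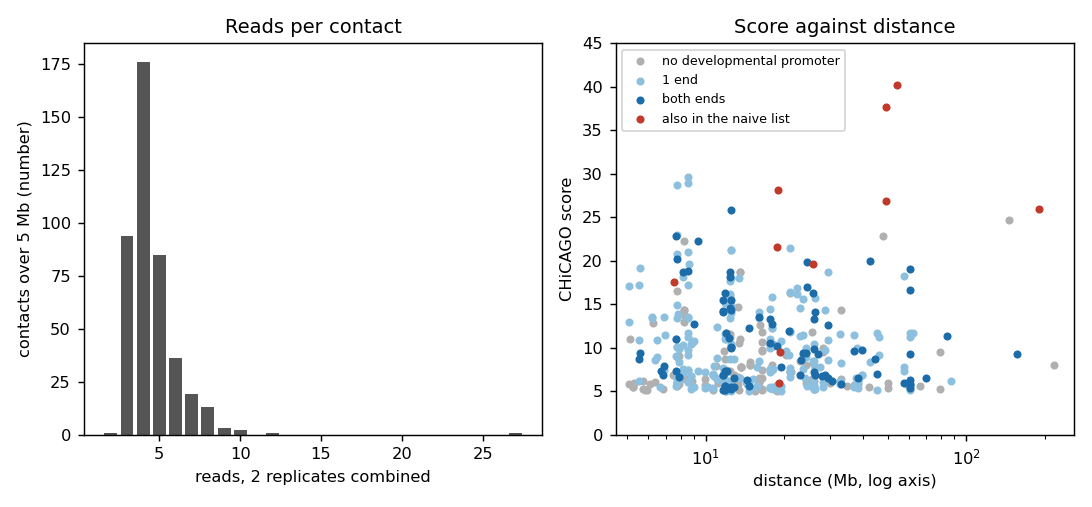
Left, number of contacts over 5 Mb at each combined read number in the primed list. Right, CHiCAGO score against distance (log axis) for the 431 contacts, coloured by how many ends carry a developmental promoter or by presence in the naive list. Most contacts sit at 3 to 5 reads, and the 2 highest scores, 40.2 and 37.7, are contacts that the naive list holds too.

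Contacts that the naive list also held numbered 10 of 431 (2.32%, 95% Wilson interval 1.27 to 4.22%), and 0 of the 10 had a developmental promoter at an end, against 72.9% of the other 421. Their median score was 23.8 against 7.88. They were *SLC20A1*, 3 contacts of *ZNF595*, 4 between the region of *SPPL2C*, *STH* and *KANSL1* on chromosome 17 and a fragment 2.4 kb from *LRRC37A3*, and 1 each of *CHMP3* and *MAP3K4*. *LRRC37A3* and *ZNF595* belong to multigene families with close copies, and what share of these reads could map to a copy was not tested.

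A developmental gene was judged by a list of 386 genes in 13 families, namely transcription factors of homeobox, PAX, forkhead, SOX, GATA, T-box, bHLH and zinc finger classes, and signalling genes. A promoter of such a gene lay on 1 or both ends of 307 contacts (71.2%, 66.8 to 75.3%). The share was 17.2% among 5554 primed contacts of 1 to 5 Mb and 5.02% among 82727 of up to 1 Mb. Both ends carried one in 86 contacts (20.0%, 16.5 to 24.0%), against 2.05% and 0.226%. With ends within 50 kb of a developmental promoter counted too, both ends qualified in 295 contacts (68.4%), against 9.43% and 1.20%, so that many ends without a developmental promoter lay beside one. By distance the share was 67.8% at 5 to 10 Mb (n = 118), 72.9% at 10 to 50 Mb (n = 284) and 69.0% beyond 50 Mb (n = 29). Many contacts share fragments and loci and are not independent, so the intervals are too narrow and no trend with distance was tested. Across the centromere it was 35.2% of 54 contacts, against 76.4% of the 377 within an arm.

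**Figure D2:**
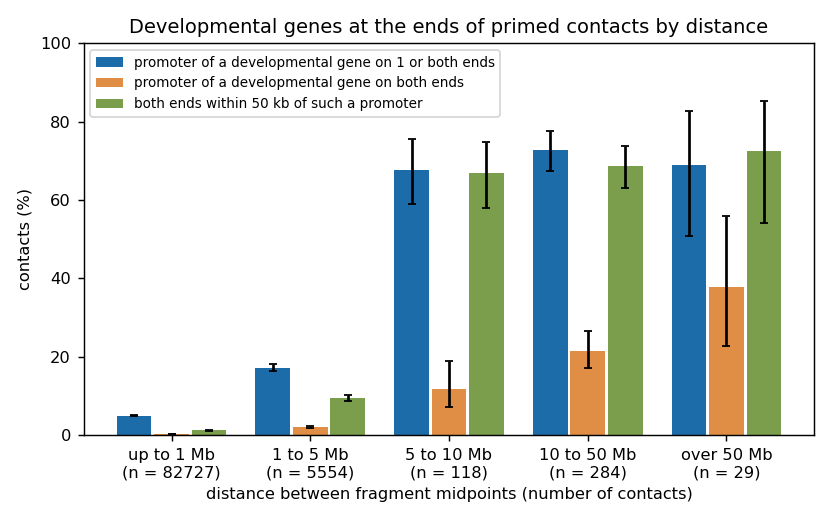
Percentage of primed contacts with a developmental promoter on at least 1 end, on both ends, or with both ends within 50 kb of one, by distance class. Bars are shares and error bars 95% Wilson intervals for counting error. The share with at least 1 developmental end is 5.02% up to 1 Mb, 17.2% at 1 to 5 Mb and 67.8 to 72.9% in the 3 classes over 5 Mb.

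Counted by gene, 110 of the 386 listed genes (28.5%) anchored at least 1 contact over 5 Mb, against 71 of 19032 other protein-coding genes (0.373%). Homeobox families contributed 65 of 167 genes (38.9%) and were present in 188 contacts. Among the HOX clusters and related genes, which set segment identity, 26 of 52 anchored a contact. The list of NK-type genes had 17 of 47, zinc finger factors 17 of 46, LIM homeobox factors 6 of 12, GATA and T-box factors 8 of 19, forkhead factors 7 of 21, paired-type factors 8 of 30, bHLH factors 7 of 44 and SOX factors 2 of 13. Signalling genes stood apart from the factors, with 1 of 67, *BMP4* (a ligand that patterns many tissues), which had 2 contacts. Of 14 pluripotency factors 0 anchored a contact, and of 70 ribosomal protein genes 1 did, *RPS27*. These shares are over all listed genes, of which not all were contacted: 335 of the 386 developmental genes had a primed contact at some distance, as had 12158 of the 19032 others. So had 7 of the 14 pluripotency factors and 47 of the 70 ribosomal protein genes. Lists this short cannot tell 0 or 1 gene from the 0.373% of other genes.

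The 25 genes with the most contacts were present in 247 of the 431. *NKX2-3*, needed for spleen and gut mesenchyme, led with 28 contacts to 5 partner loci. *PAX6*, the eye and forebrain regulator, had 23 contacts on 7 fragments to 2 partner loci, *ALX4* and *DBX1*. *NR2E1*, a nuclear receptor of neural stem cells, had 18, all on 1 fragment of 9879 bp that also carries the promoter of *OSTM1*, so the 2 genes cannot be told apart there and *OSTM1* reached 21 through other fragments. *ALX4* (limb and skull) had 17 and *ZFHX3* 15. *ZFHX3*, itself a homeobox and zinc finger factor, is not on the list used here and was counted as another gene.

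*OTP* (hypothalamus) and *PITX1* (hindlimb) had 14 each, and *PRDM13* (dorsal neurons), *WT1* (kidney and gonad) and *VAX2* (ventral eye) 11 each. *NKX2-1* (lung, thyroid and ventral forebrain) had 10 on a fragment shared with *SFTA3*, and *TBX3* (limb and heart) 10. *SIM1* (hypothalamus) and *HAND1* (heart) had 9, *GSX2* (ventral forebrain) 8, and *DMRT3*, *NKX6-1*, *FOXE1* and *DBX1* 7 each. *OLIG3* (dorsal neural progenitors) had 6, as had *NAE1*, a subunit of the NEDD8-activating enzyme and the only one of the 25, beside *OSTM1*, *SFTA3* and *ZFHX3*, that is no listed factor. The naive list held 0 contacts over 5 Mb for each of the 25, but it holds only 17 such contacts in all, so most genes have 0 there.

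The anchors differed in how many shorter contacts they had. *NKX2-3* had 65 primed contacts at 1 to 5 Mb and 10 up to 1 Mb. *PAX6* had 0 and 49 in these classes, *PITX1* 0 and 12, and *OTP* 23 and 58. *ZFHX3*, with 15 contacts over 5 Mb, had 1 primed contact up to 1 Mb and 0 at 1 to 5 Mb.

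End fragments within 200 kb of each other were joined into loci, which gave 184 loci and 147 locus pairs. Of these pairs, 70 were joined by 2 or more contacts, 48 by 3 or more and 22 by 5 or more. The 48 held 310 of the 431 contacts, and in 33 of the 48 both loci carried or lay beside a developmental promoter. The other 77 of the 147 pairs had a lone contact.

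*PAX6* with *ALX4* had 19 contacts over 12.5 Mb of chromosome 11, where *WT1* with *ALX4* added 12 and *DBX1* with *PAX6* 8. *PRDM13* with *NR2E1* had 16 contacts (8.56 Mb, 99 reads) and *SIM1* with *NR2E1* 7, both on chromosome 6. *NKX2-3* met *VAX1* in 13 contacts and *EMX2* (cortex and urogenital tract) in 10, at 17.6 and 18.0 Mb. *DMRT3* and *DMRT1* with the cell cycle inhibitor locus *CDKN2B* and *CDKN2A* had 11, *ZFHX3* with *FOXF1* and *FOXL1* 9, and *SIX2* and *SIX3* with *VAX2* 9 at 26.0 Mb.

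**Figure D3:**
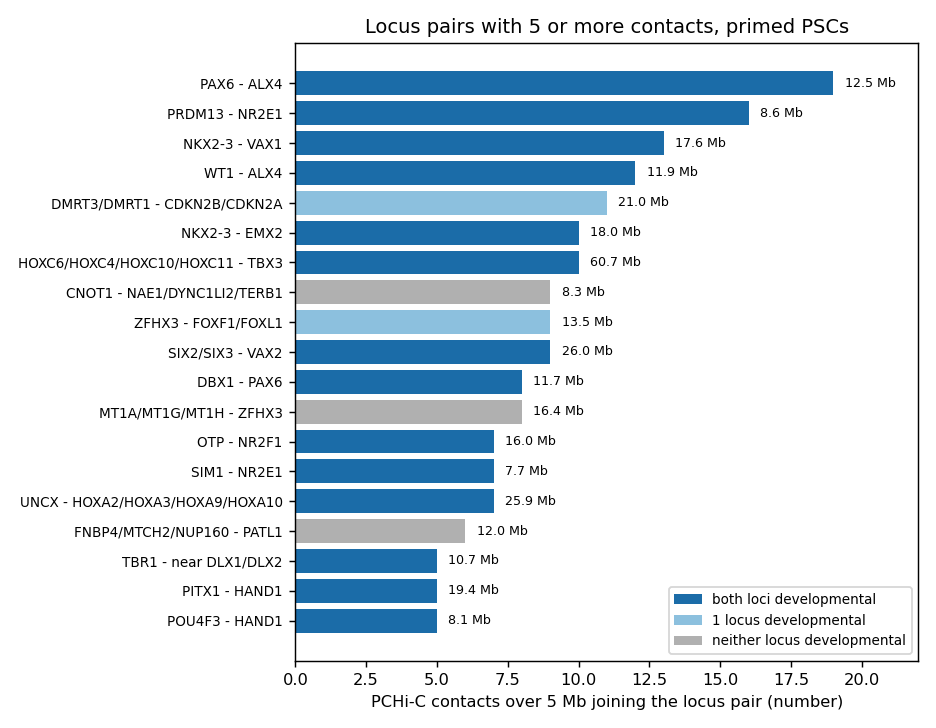
Number of PCHi-C contacts over 5 Mb that join each of 19 of the 22 locus pairs with 5 or more, with the median distance in Mb beside each bar. Colours give how many of the 2 loci carry or lie within 50 kb of a developmental promoter. *PAX6* with *ALX4* stands at 19 and *PRDM13* with *NR2E1* at 16.

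Every HOX cluster had such partners. *HOXC* genes and *TBX3* shared 10 contacts across 60.7 Mb of chromosome 12, with 3 to 5 reads each, and 1 contact joined *HOXC* to *LHX5*. *HOXA* genes met *UNCX* (axial skeleton) in 7 contacts at 25.9 Mb and *DLX6* in 1 at 69.8 Mb. *HOXB* genes met *BAHCC1* in 4, *TBX4* and *TBX2* in 3 and *LHX1* in 3. *HOXD* genes met *TBR1* (cortical neurons) in 4. *TBR1* also had 5 contacts with fragments beside *DLX1* and *DLX2*. *MNX1* (motor neurons and pancreas) had 1 contact, with *UNCX* at 155.8 Mb and 3 reads, listed from both baits. Promoters of *SHH* and *EN2* anchored none.

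Several loci met more than 1 partner, and 13 triangles had all 3 sides. Each triangle holds 3 chains of 3 loci, so 39 of the 208 such chains (18.8%) were closed. Of the 13, 7 were on chromosome 5, where *OTP*, *PITX1*, *PURA*, *HAND1*, *PRDM6*, *NR2F1*, *POU4F3*, *MSX2* and *NKX2-5* shared members. *OTP* had contacts with 8 loci, the most of any locus. On chromosome 6 *NR2E1* and *OLIG3* closed triangles with *PRDM13* and with *SIM1*. Contacts of a triangle share fragments and libraries and are not independent of each other.

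Other repeated pairs carried no developmental promoter of the list. *CNOT1* (mRNA deadenylation) and the *NAE1*, *DYNC1LI2* and *TERB1* locus on chromosome 16 shared 9 contacts at 8.26 Mb, and metallothionein genes *MT1A*, *MT1G* and *MT1H* met *ZFHX3* in 8. *FNBP4*, *MTCH2* and *NUP160* on chromosome 11 met *PATL1* in 6 and *DDB1* in 3. *SF3B1*, *PIKFYVE* and *XRCC5* formed a triangle on chromosome 2 with 1, 1 and 2 contacts.

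The primed Hi-C library, which was not used to choose the contacts, was then read at the 100 kb pixels that hold them. It holds 52056334 contacts. The PCHi-C libraries were captured from Hi-C material, so the same ligation products may be counted in both assays. The contacts fell in 182 pixels, 176 of them with both bins covered, and 170 of the 182 had a Hi-C count. The 176 pixels held 1153 Hi-C contacts, a mean of 6.55 per pixel, where pixels at the same distance on the same chromosome predict 125 (0.712 per pixel). The ratio was 9.20 (95% Poisson interval 8.68 to 9.75, counting error of 1 library only). Within their own surroundings, 300 to 500 kb away, the pixels held 5.05 times (4.76 to 5.35) the mean count of 1.30.

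As a share of pixels, 107 of the 176 (60.8%) lay above the 99th percentile of their distance and 133 (75.6%) above the 95th, where 0.703% and 4.30% of all covered pixels over 5 Mb did. The median percentile was 99.8. A count of 0 was found in 5.68% of them. The excess was narrow. With coverage of both bins in the expectation it was 12.6-fold at the pixel, 4.99-fold at 100 kb from it, 2.3-fold at 300 kb and 1.42-fold at 1000 kb.

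**Figure D4:**
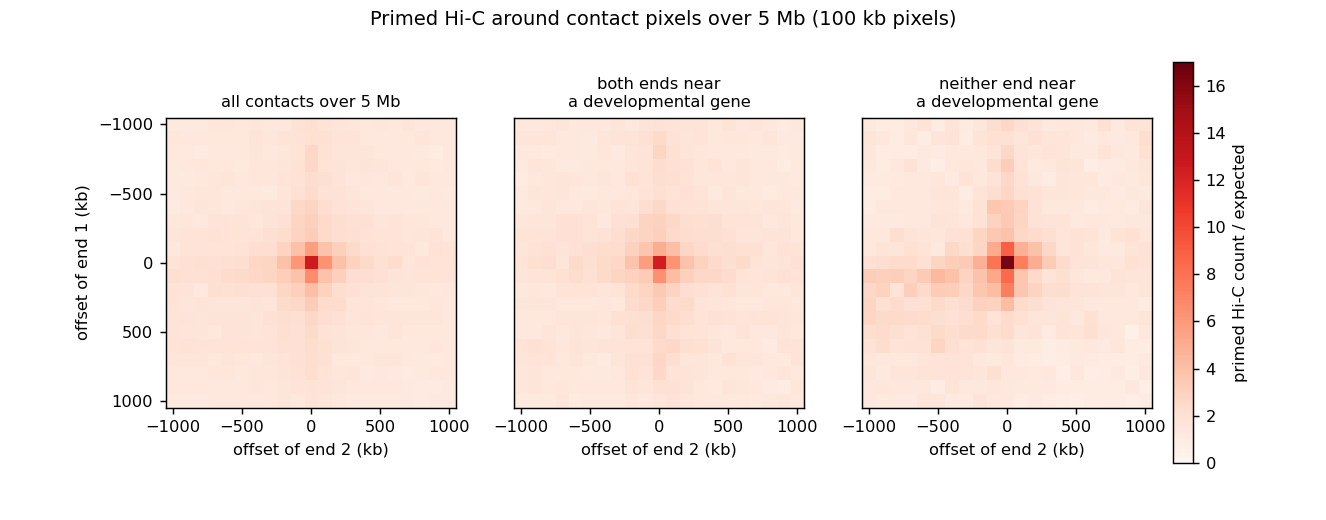
Primed Hi-C counts summed over contact pixels and the pixels up to 1000 kb around them, divided by the count expected from distance and bin coverage, for all contacts over 5 Mb, those with both ends near a developmental gene and those with neither. Axes are offsets from the pixel of the contact in kb. The centre pixel reaches 12.6, 12.4 and 16.4 and the ring at 1000 kb 1.42, 1.44 and 1.45.

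The excess was found with and without developmental genes, and their order depended on the expectation. By distance alone it was 9.62-fold (8.85 to 10.4) with both ends near a developmental gene (96 pixels), 8.64-fold (7.60 to 9.79) with 1 end near and 8.95-fold (8 to 9.99) with neither, and these intervals overlap. With bin coverage in the expectation it was 12.4-fold (11.4 to 13.4), 9.97-fold (8.77 to 11.3) and 16.4-fold (14.6 to 18.3), which do not overlap, with the highest value where neither end was near. The 6 pixels without coverage were all of that kind. Against surrounding pixels the values in the same order were 4.97-fold (4.57 to 5.39), 4.86-fold (4.28 to 5.51) and 5.35-fold (4.78 to 5.97). These intervals overlap. By distance class the excess over pixels at the same distance was 7.70-fold at 5 to 10 Mb and 9.24-fold at 10 to 20 Mb. It was 11.96-fold at 20 to 50 Mb and 17.5-fold beyond 50 Mb, the last on 37 Hi-C contacts in 18 pixels. Against surrounding pixels the same classes had 4.51-fold, 5.32-fold, 5.67-fold and 5.38-fold (3.79 to 7.42 for the last). By distance alone, pixels across the centromere had 9.26-fold (7.81 to 10.9), or 17.5-fold (14.8 to 20.6) with coverage. Repeated locus pairs had more than lone ones: 12.5-fold (11.3 to 13.9) where a pair had at least 5 contacts, 9.27-fold with 2 to 4 and 7.07-fold (6.35 to 7.86) with 1. By reads the values were 9.35-fold (8.30 to 10.5) at 2 or 3 reads and 11.7-fold (10.5 to 12.9) at 6 or more, and with coverage the order turned, at 17.2-fold (15.2 to 19.3) and 14.1-fold (12.7 to 15.5). Read classes share pixels: they had 65 (2 or 3 reads), 105 (4), 53 (5) and 37 (6 or more), of 182 in all. A pixel of contacts with few reads could therefore also hold contacts with more. Whether contacts with the fewest reads have a raised Hi-C count of their own was not tested.

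Of the 48 locus pairs with 3 or more contacts, 47 had more Hi-C contacts than predicted and 40 had a lower bound above 1. *PAX6* with *ALX4* had 29 against 1.48, *WT1* with *ALX4* 19 against 0.789 and *PRDM13* with *NR2E1* 32 against 2.51. *DMRT3* and *DMRT1* with *CDKN2B* and *CDKN2A* had 49 against 2.27 (21.5-fold, 15.9 to 28.5), and *CNOT1* with *NAE1* 30 against 1.46. *HOXC* with *TBX3* had 6 against 0.245, and *UNCX* with *HOXA* 12 against 0.464. The highest ratio, 48.9-fold, was at *PRRC2C* with a fragment near *TPR*, on 33 Hi-C contacts. *TBR1* with the *DLX1* and *DLX2* surroundings was the exception, with 1 Hi-C contact against 1.03. *OTP* with *NR2F1*, joined by 7 contacts, had 3 against 1.67 (1.79-fold, 0.370 to 5.24), which counting error does not separate from the prediction.

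Pairs of the same bins that PCHi-C did not list were also read, over 5 Mb on the same chromosome and more than 2 bins from any listed pixel. Over 1317 covered pixels their count was 2.31 times (2.16 to 2.48) that predicted by distance. Where both bins lay near a developmental gene (263 pixels) it was 5.49 times (4.89 to 6.14), and where neither did (375 pixels) 2.09 times (1.83 to 2.38). Listed pixels of both kinds lay above these values. They were chosen by PCHi-C reads that may come from the same ligation products, so this order may be set by the choice itself. Distance also predicted fewer counts at the unlisted pixels, a mean of 0.269 per pixel against 0.712 at the listed ones. Primed contacts of 1 to 5 Mb had a 4.41-fold ratio over 1612 pixels, at shorter distance and with a mean of 77.9 Hi-C contacts per pixel. The naive Hi-C table lists only 4 of the 182 pixels and few long *cis* pairs of any kind, so the states were not compared at these pixels.

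H3K4me1 was read as the mean log2 RPM (reads scaled to library size) of the 500 bp tiles whose centre lies in a fragment. Where no centre did, the tile that holds the middle of the fragment was used. Reads summed over tiles ran from 9593301 to 37942111 per library. A tile is longer than some fragments, and empty tiles stand at a floor set by depth, from −4.89 to −2.91. As a check of the labels, promoters of all 7 naive markers had less H3K4me1 in each primed library than in each naive one, and of 7 primed markers 4 had more, 2 overlapped and *CD24* had less.

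The median over the 445 end fragments was −1.19 and −1.13 in naive replicates 1 and 2, and −0.50, −0.83 and −0.75 in primed replicates 1 to 3. Over all 833766 *Hin*dIII fragments tested it was −3.32, −2.75, −3.01, −2.70 and −3.00 in the same order. The ends therefore lay 1.88 ± 0.361 log2 units (SD, n = 2) above all fragments in naive and 2.21 ± 0.318 (SD, n = 3) in primed libraries. The difference of 0.33 was no larger than the spread between libraries, and 2 against 3 libraries cannot reach an exact permutation p below 0.1. Of the 445 ends, 225 (50.6%) were among the top 10% of fragments in every primed library, where 6.26% of all fragments were, and 178 (40%) in both naive libraries, where 8.01% were. Developmental promoter fragments without a contact over 5 Mb (n = 685) had 40.6% in primed and 34.7% in naive libraries. The 131 ends with a developmental promoter had 79.4% and 61.1%.

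The mark was often high at both ends. Both fragments were in the top 10% of every primed library in 175 contacts (40.6%), 1 was in 164 and neither in 92. In primed contacts of 1 to 5 Mb both were in 7.72%, and in those of up to 1 Mb in 3.52%. A fragment with many contacts counts once for each. Both ends were baited in 23.9% of contacts over 5 Mb, against 9.90% and 11.2% in these classes. How far this sets the difference was not tested. In the naive libraries both ends of 123 of the 431 (28.5%) were in the top 10%. With both ends near a developmental gene the primed share was 50.5% of 295 contacts, and with neither end near one it was 5.13% of 78.

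The 131 ends with a developmental promoter had medians of −0.63 and −0.68 in the naive libraries and 0.08, −0.23 and −0.34 in the primed ones. The 166 other ends within 50 kb of such a promoter had −1.42 and −1.32 against −0.38, −0.78 and −0.60. In both sets every primed median lay above every naive one on this scale. Relative to the median over all fragments of the same library, the first set overlapped, at 2.69 and 2.08 in naive against 3.08, 2.47 and 2.66 in primed libraries. The second set stayed apart by a narrow margin, at 1.90 and 1.43 against 2.63, 1.92 and 2.40. The 148 ends away from developmental genes had −1.57 and −1.41 against −2.21, −2.06 and −2.15, with every primed median below, also relative to all fragments (1.76 and 1.34 against 0.80, 0.63 and 0.85). Developmental promoter fragments without a contact over 5 Mb lay lower, at −1.49 and −1.34 against −0.96, −1.12 and −1.15.

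**Figure D5:**
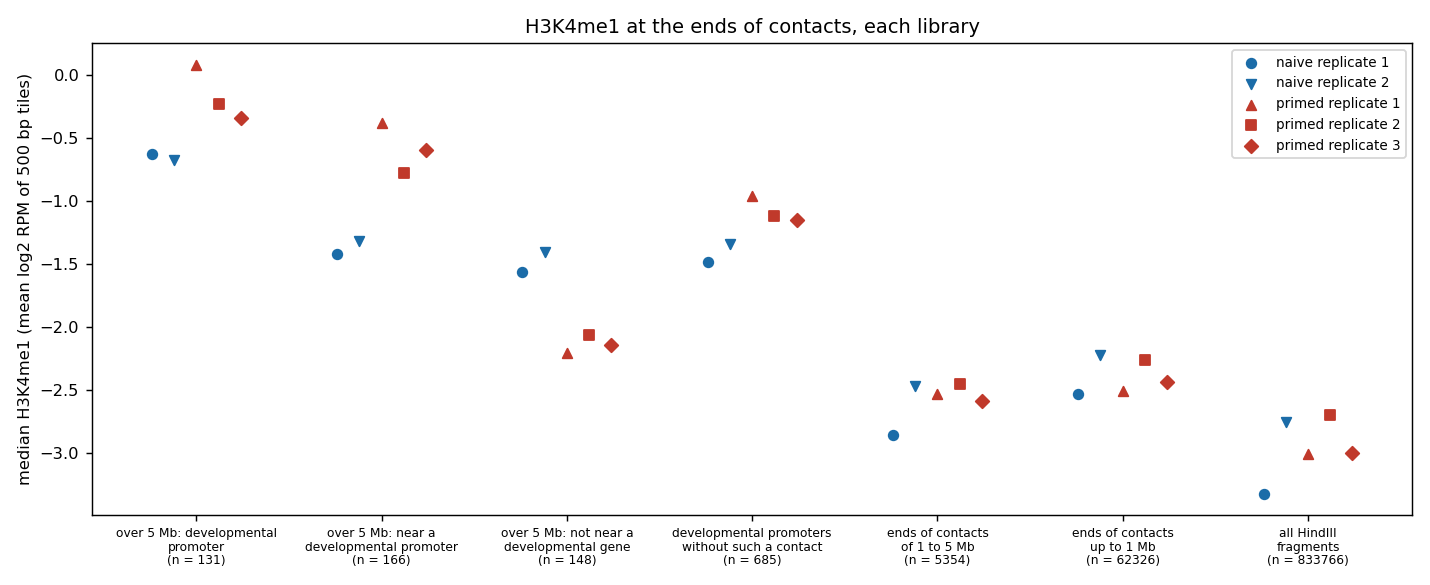
Median H3K4me1 (mean log2 RPM of 500 bp tiles) over sets of *Hin*dIII fragments, 1 point per library, with the number of fragments under each set. On this scale primed libraries lie above naive ones at ends with or near a developmental promoter and below them at the 148 other ends. Relative to all fragments of each library, ends with a developmental promoter overlap (2.08 to 2.69 in naive, 2.47 to 3.08 in primed). All 5 libraries are lower over all fragments, between −3.32 and −2.70.

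By limma over all fragments (Benjamini-Hochberg adjusted p under 0.05), 86 of the 445 ends were higher and 36 lower in primed PSCs, 19.3% and 8.09%, against 8.10% and 6.66% of all fragments tested. Among ends with a developmental promoter 26 of 131 were higher and 4 lower, and among those near one 47 of 166 were higher and 5 lower. Among the other 148 ends 13 were higher and 27 lower. Without a contact over 5 Mb, 98 of 685 developmental promoter fragments (14.3%) were higher and 26 (3.80%) lower. In the 131 ends with a developmental promoter the shares were 19.8% and 3.05%, so much of the gain was shared. Ends of up to 1 Mb contacts had 7.75% higher and 10.3% lower. A count test by edgeR on reads recovered from the deposited values called 89 higher and 42 lower of 437 ends, where 9.69% and 9.20% of fragments were called. With each library centred on its median fragment, which moved the median difference of all fragments by −0.14, limma called 33 ends higher (7.42%, against 4.33% of all fragments) and 28 lower (6.29%, against 6.15%). The calls fell to 31 without naive replicate 1 (18 higher, 4.04% against 1.20%, and 13 lower, 2.92% against 2.77%), to 38 without naive replicate 2 (27 higher, 6.07% against 5.59%, and 11 lower, 2.47% against 2.52%) and to 74 without primed replicate 3 (52 higher, 11.7% against 6.24%, and 22 lower, 4.94% against 4.32%).

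Both ends were called higher in 14 contacts (3.25%), 1 end in 114 and neither in 303, where both were in 1.19% of contacts of 1 to 5 Mb and 1.01% of those up to 1 Mb. Both ends were called lower in 2 (0.464%), 1 end in 43 and neither in 386. In contacts of 1 to 5 Mb both were called lower in 0.594%, and in those up to 1 Mb in 2.10%. Among fragments of leading anchors, *DBX1* had −1.12 and −1.46 in naive against 1.17, 0.45 and 0.75 in primed libraries. Its difference was 2.08 ± 0.44 log2 units (SE, limma adjusted p = 6.62e-05). *GSX2* had −0.80 and −0.78 against 1.39, 0.64 and 0.69, a difference of 1.70 (limma adjusted p = 0.00164), and *OLIG3* −0.82 and −0.86 against 1.15, 0.30 and 0.54, a difference of 1.5 (limma adjusted p = 0.00739). The primed and naive libraries of these 3 did not overlap, as was so, with primed higher, at 157 of the 445 ends (35.3%, against 14.4% of all fragments). Every primed library was below every naive one at 91 ends (20.4%, against 16.3%).

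Limma did not call the fragments of the anchors with the most contacts. The *NR2E1* fragment had 0.59 and 0.18 in naive against 0.83, 0.27 and 0.34 in primed libraries, which overlap. The *PAX6* fragment with the most contacts had 0.87 and 0.24 against 1.05, 0.50 and 0.92, and *ALX4* −0.05 and −0.53 against −0.32, −0.13 and −0.09. *NKX2-3* went the other way, with 0.94 and 0.28 in naive and 0.22, −0.62 and −0.58 in primed libraries, a difference of −0.93 that was not called (limma adjusted p = 0.169). Every primed library was likewise below every naive one at *OTP* (−0.70), *PRDM13* (−0.43), *FOXE1* (−0.41), *NAE1* (−0.39) and *NKX2-1* with *SFTA3* (−0.34). Limma called none of these. The reverse held, also without a limma call, at *NKX6-1* (0.93), *SIM1* (0.86), *DMRT3* (0.81) and *WT1* (0.56). Over the 31 ends with at least 5 contacts, 24 (77.4%) were in the top 10% of every primed library and 24 in both naive ones. Of all fragments, 6.26% and 8.01% were. Limma called 4 of the 31 higher (12.9%) and 0 lower, against 8.10% and 6.66% of all fragments.

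Large increases among called ends with no overlap between the groups were found at fragments beside a developmental gene and not at its promoter. They were 2 fragments 9.1 and 10.8 kb from *NKX3-2* (3.42 and 3.70 log2 units), 1 at 3.9 kb from *FOXC2* (3.51) and 1 at 10.1 kb from *HLX* (3.49). Those beside *FOXC2* and *HLX* and the nearer one beside *NKX3-2* overlap no annotated gene, and the other lies on an exon of the lncRNA gene *LINC01097*. A fragment under 500 bp rests on 1 tile, which also covers sequence outside it. The largest decreases were at a fragment 1.0 kb from the start of *ARPC2* and within its intron (−4.35), beside *LRRC37A3* (−3.16), 8.9 kb from *TEC* (−3.12), in *EHBP1* (−2.89) and at *CD53* (−2.84), none of them near a gene of the list except the *EHBP1* fragment, which was grouped with the *OTX1* locus.

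The shortest fragment of each direction is shown whole, plus strand of GRCh38, with every CpG in capitals. The first, at chr16:86570598-86570800, has 203 bases and 5 CpGs and was an end of 2 contacts. The second, at chr2:218229682-218229845, has 164 bases and 0 CpGs and was an end of 1.
FOXC2 side: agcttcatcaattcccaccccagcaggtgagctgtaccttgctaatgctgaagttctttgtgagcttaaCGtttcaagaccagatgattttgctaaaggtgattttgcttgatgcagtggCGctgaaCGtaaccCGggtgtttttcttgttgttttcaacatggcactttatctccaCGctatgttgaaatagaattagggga
ARPC2 intron: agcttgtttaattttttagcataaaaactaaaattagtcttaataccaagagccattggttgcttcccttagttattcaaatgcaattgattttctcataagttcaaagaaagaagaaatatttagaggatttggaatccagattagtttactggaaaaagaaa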

How the data were processed

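PCHi-C, Hi-C and H3K4me1 CUT&RUN data of H9 NK2 PSCs were used. The authors trimmed and aligned reads to GRCh38 (Trim Galore 0.4.5 and 0.5.0 and Bowtie2 2.2.7 and 2.3.2 are in the submitters' processing notes), processed Hi-C with HiCUP, and called contacts with CHiCAGO on 2 combined replicates. The deposited lists hold a score and a combined read count per fragment pair, at a score of at least 5. The deposited Hi-C counts are raw contacts between bins, summed here to 100 kb pixels. The deposited H3K4me1 values are log2 RPM in 500 bp tiles, made by the authors in SeqMonk, with no pseudocount added here.

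Promoters came from GENCODE v44 and promoter sequences from RefSeq. Loci join fragments within 200 kb. Expected Hi-C counts are means over pixels at the same distance on a chromosome, for bins above 10% of the median coverage, and surroundings are 3 to 5 bins away. Fragment H3K4me1 was tested with limma 3.58.1 (R 4.3.3), and with edgeR 4.0.16 on whole reads recovered from all tiles (100% within tolerance 0.02). Python 3.11.15, numpy 2.4.6, pandas 2.3.3 and scipy 1.17.1 did the rest. Intervals are 95% (Wilson or exact Poisson) and cover counting error only. They treat contacts or pixels as independent, though many share fragments or bins. Scripts were tested on simulated data. The study describes its replicates as biological without saying whether they were separate cultures, so p-values measure only the spread between these samples. The contacts and gene lists were chosen with earlier results of these data known. Genes named are the 25 with the most contacts, the 5 contacts with the highest score and the 5 with the most reads, locus pairs by number of contacts, and the 5 called ends that differ most in each direction. Some items that this rule names are not reported here. Pairs and genes with fewer contacts were named after their values were seen.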

Additional observations from a re-analysis of the deposited data

How the results depend on the processing

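The number of contacts was 262 at a score of at least 7, 157 at a score of at least 10 and 160 with at least 5 reads, while 313 lay over 10 Mb. A developmental promoter was present in 43.6% with homeobox families alone, 75.6% at a score of at least 7 and, as an alternative chosen after seeing the data, 81.9% within 50 kb. The number of repeated locus pairs stayed within 1.5 times of 70 under the 3 alternatives run. CpG density was 1.83 times that of other contacted fragments among baited fragments alone.

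The Hi-C ratio to pixels at the same distance was 12.6 with coverage in the expectation, 5.08 with 200 kb pixels, 10.59 at a score of at least 7, 9.92 with at least 5 reads and 12.4 with each contact counted. It was 8.44 without locus pairs of 10 or more contacts, which was chosen after seeing the data. The ratio to surrounding pixels was 6.09 with surroundings 5 to 10 bins away, 6.44 over the expectation from distance and coverage, and 5.43 at a score of at least 7.

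The 122 H3K4me1 calls became 80 with the highest tile of a fragment, 61 with centred libraries (54.1% of them higher, against 70.5%), and 31 to 129 with 1 library left out, where a lone naive library is assumed to vary like the primed ones. With the replicate number as a block they were 71, of which 50 were higher, and the difference between states at the ends was 0.31 log2 units. The numbers are not stated to mark a shared culture or day, so this is no paired design. That difference ranged from 0.08 to 0.59 with 1 library left out. The cause of these shifts was not tested.

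Reads per contact, 1 Hi-C library without replicate and 2 naive H3K4me1 libraries limit these values.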
